A study of Homo sapiens with 16 samples.

Results

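The genes described here encode the degradative enzymes, membrane proteins and proton pump of the lysosome, together with TFEB, TFE3 and MITF, the MiT/TFE transcription factors that act on many of them. They were chosen by name, as 53 listed genes in 6 classes by role: proteases, glycosidases and sulfatases, lipid-degrading enzymes and their activators, other membrane and lumenal proteins, subunits of the V-ATPase, and the factors themselves. The choice was made with earlier results of these data known. Each gene was represented by its probe set with the highest mean over the 16 arrays. A probe set that lists 1 gene alone was available for 52 of the 53, out of 19777 genes measured in this way. GLB1 was left out, because its probe set lists several genes.

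The cells were MIA PaCa-2, an established human pancreatic cancer line grown in culture. For 12 hours they were exposed to PP242, which blocks the catalytic site of the kinase mTOR, at 2.5 µM, or to the DMSO vehicle alone. Of each treatment, cytosolic RNA and RNA from pooled sucrose gradient fractions carrying more than 3 ribosomes per mRNA (polysome RNA) were hybridised to Affymetrix 3-prime arrays. The 4 groups are therefore cytosolic vehicle, polysome vehicle, cytosolic PP242 and polysome PP242, with 4 replicates of each. Nothing in the labels says that replicates came from cultures of their own. If they did not, the p-values reflect the spread of these samples and perhaps technical error alone. A single cell line was used.

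Lysosomes are acidic organelles in which hydrolases break down proteins, sugars, lipids and other material delivered by endocytosis and autophagy. The V-ATPase pumps protons into them, and mannose 6-phosphate receptors bring newly made hydrolases to them. When amino acids are plentiful, mTOR complex 1 sits on the lysosomal surface and phosphorylates TFEB and TFE3, which holds them in the cytoplasm. When the complex is inhibited, the factors enter the nucleus and bind an extended E-box known as the CLEAR element, found near the start sites of many lysosomal genes. Their activity is thus controlled to a large extent through their location in the cell, which an mRNA array does not measure.

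The CLEAR element is the sequence feature this gene family is known for, so 6 promoter stretches that carry its E-box core are shown. They come from RefSeq (GRCh38.p14), run 5′ to 3′ on the coding strand, and end 20 bases after the annotated start site. LAMP1 was chosen for its number of E-boxes, MCOLN1 and GAA for the complete element, and CTSA, CTSD and ATP6V0D1 because they gave 3 different responses in the arrays. Capitals mark the 6-letter E-box core CACGTG.
LAMP1, chr13:113297038-113297258, plus strand: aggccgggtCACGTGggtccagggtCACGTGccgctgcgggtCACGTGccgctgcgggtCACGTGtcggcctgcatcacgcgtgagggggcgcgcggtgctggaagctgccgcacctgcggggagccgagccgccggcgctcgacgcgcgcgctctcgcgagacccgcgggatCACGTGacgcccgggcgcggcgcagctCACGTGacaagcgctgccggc
GAA, chr17:80101481-80101600, plus strand: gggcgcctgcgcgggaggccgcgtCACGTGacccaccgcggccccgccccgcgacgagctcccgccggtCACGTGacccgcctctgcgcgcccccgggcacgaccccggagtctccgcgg
MCOLN1, chr19:7522524-7522643, plus strand: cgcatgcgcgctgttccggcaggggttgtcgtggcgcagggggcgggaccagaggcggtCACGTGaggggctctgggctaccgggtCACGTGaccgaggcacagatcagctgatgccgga
CTSA, chr20:45891235-45891354, plus strand: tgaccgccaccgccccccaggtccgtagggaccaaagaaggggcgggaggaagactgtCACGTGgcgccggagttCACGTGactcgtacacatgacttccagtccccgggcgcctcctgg
CTSD, chr11:1763908-1764027, minus strand: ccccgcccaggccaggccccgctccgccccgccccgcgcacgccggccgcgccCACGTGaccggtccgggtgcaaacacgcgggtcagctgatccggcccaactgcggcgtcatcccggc
ATP6V0D1, chr16:67481138-67481257, minus strand: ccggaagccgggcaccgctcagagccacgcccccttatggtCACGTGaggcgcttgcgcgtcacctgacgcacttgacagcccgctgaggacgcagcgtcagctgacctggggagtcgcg
The LAMP1 stretch holds 6 E-boxes, those of GAA, MCOLN1 and CTSA hold 2 each, and those of CTSD and ATP6V0D1 hold 1 each. In GAA both E-boxes lie inside the full 10-letter element, which is the palindrome TCACGTGA with 1 more base on each side, 76 and 31 bases before the start site.

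Deposited values are RMA summaries on the log2 scale, and a difference of 1 unit is a doubling of signal. Arrays of 1 group correlated at 0.979 to 0.998. Cytosolic PP242 arrays varied most, with a median SD per member of 0.276, where the other 3 groups had 0.135 to 0.170, and their replicates 2 and 4 had the lowest array weights (0.360 and 0.251). Array medians ran from 5 to 5.05 in cytosolic RNA and from 4.57 to 4.63 in polysome RNA, so the RNA pools are on different scales and treatment was compared inside each pool. The labelled cell line was checked against markers. KRT8, KRT18, KRT19 and VIM were high, with lowest group means of 13.1 for KRT18 and 14.0 for VIM, while EPCAM and CDH1, which many epithelial cells express, were near the lowest signals (group means of 2.61 to 2.98 for EPCAM and of 3.20 to 3.90 for CDH1). KRT19 read 9.29 in cytosolic vehicle and 10.86 in cytosolic PP242 (group means), KRT8 read 11.4 and 12.3, and KRT18 read 13.1 and 13.8. KRT7, the remaining epithelial marker, was near the median gene and did not rise there (6.4 and 6.3). The summed linear signal of the 6 epithelial markers, carried mainly by KRT18 and KRT8, was 10600 to 13400 in cytosolic vehicle and 17500 to 28600 with PP242. On polysomes it was 23200 to 26500 and 31900 to 35100. ZEB1, the mesenchymal marker listed with VIM, also read higher with PP242. Its group means were 8.9 in cytosolic vehicle and 9.7 in cytosolic PP242, and 7.7 and 8.9 on polysomes. Of 6 fibroblast markers COL1A2 read 11.62 in cytosolic vehicle and 10.96 with PP242, COL3A1 read 6.91 and 6.08, and COL1A1 6.98 and 6.63. DCN (5.19 and 5.26), LUM (3.26 and 3.27) and PDGFRB (6.38 and 6.49) did not fall there. The summed signal was 3010 to 4130 and 1810 to 2940 (4120 to 6720 and 2340 to 3780 on polysomes). It is carried mainly by COL1A2, the brightest of the 6, and does not show a fall of the whole set.

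Macrophages are rich in lysosomes, and 8 of their markers were checked. PTPRC, LYZ and MRC1 were near the lowest signals in all 4 groups (2.77 to 3.42), CD163 was at 3.70 to 4.41, and CD14, CSF1R and ITGAM were at 4.97 to 5.56. AIF1, at 6.32 in cytosolic vehicle and 6.26 in cytosolic PP242, was the 1 of 8 above the median gene there. The summed signal of the 8 was 233 to 256 in cytosolic vehicle and 231 to 297 in cytosolic PP242, and 185 to 211 and 184 to 205 on polysomes. The part of these epithelial, mesenchymal, fibroblast and macrophage markers in the results was not tested.

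In cytosolic RNA after PP242, 23 of 41 lysosomal enzymes, activators and membrane proteins rose, GLA fell and 17 did not pass the test. Of 8 V-ATPase subunits 1 rose and 1 fell, and of the MiT/TFE mRNAs TFE3 alone passed the test. Of the 52 genes, 25 were higher and 2 were lower at an adjusted p under 0.05 (limma over all genes, Benjamini-Hochberg), which is 51.9% called, where 16.4% of all genes were called (8.54% higher and 7.91% lower). The median difference was 0.42 on the log2 scale, and over all genes it was 0.04. In polysome RNA 14 were higher and 4 lower, 34.6% called, against 13.4% of all genes (6.82% higher and 6.55% lower). The median there was 0.22, and over all genes it was -0.005. The 52 genes were brighter than most. In cytosolic vehicle their median level was 8.96, where that of all genes was 6.05. In every group 45 or 46 of them lay above the median gene. The genes they are set against were not matched in signal, and the part of signal level in these and later comparisons was not tested. In bulk RNA a change in the number of cells of a kind and a change in RNA per cell cannot be told apart.

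Replicate numbers were taken to pair the samples, by the check in the processing section. With the number as a block 34 of the 52 passed in cytosolic RNA (24.9% of all genes) and 26 in polysome RNA (20.3% of all genes). Of the 27 called in cytosolic RNA, 16 were kept whichever replicate number was left out, and 16 of the 52 were called without cytosolic PP242 replicates 2 and 4. Of the 18 called in polysome RNA, 10 were kept whichever number was left out. None of these calls changed direction in the alternatives run.

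**Figure D1:**
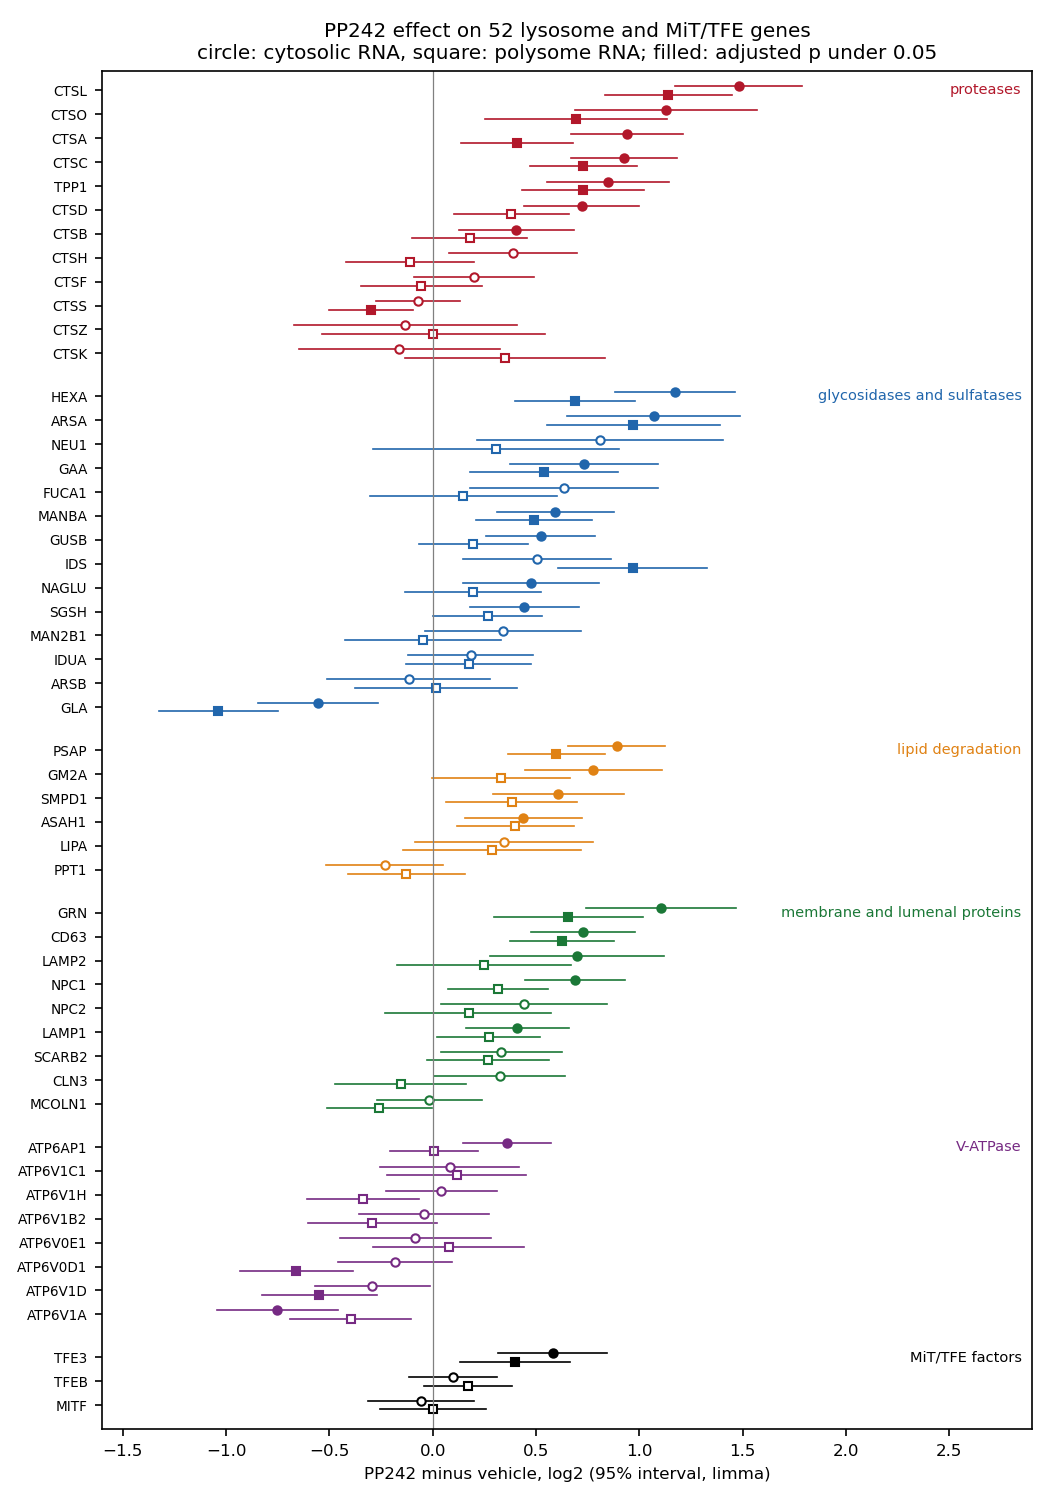
Effect of PP242 on each of the 52 genes, in 6 classes. The horizontal axis is PP242 minus vehicle on the log2 scale with the 95% interval of the limma fit; circles are cytosolic RNA, squares polysome RNA, and filled symbols have an adjusted p under 0.05. CTSL has the highest value in both RNA pools (1.48 and 1.14), GLA the lowest in polysome RNA (-1.04), and the 8 V-ATPase subunits lie between -0.75 and 0.36 in cytosolic RNA.

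The transcription factors are described first. TFEB, the member most studied as a regulator of lysosome number, read 7.31, 7.42, 7.30 and 7.15 in cytosolic vehicle and 7.52, 7.26, 7.32 and 7.47 in cytosolic PP242. On polysomes it read 6.25, 6.21, 6.20 and 6.18 in vehicle and 6.48, 6.35, 6.27 and 6.43 with PP242. The cytosolic groups overlap, while on polysomes every PP242 array lay above every vehicle array by a small margin. The differences were 0.10 ± 0.10 (SE, n = 4 per group) in the cytosol, with an interval of -0.12 to 0.31, and 0.17 ± 0.10 on polysomes, with an interval of -0.04 to 0.39. Neither passed (limma adjusted p = 0.557 and 0.340).

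TFE3, which shares with TFEB its DNA-binding domain and its control by mTOR complex 1, read 8.67, 8.75, 8.69 and 8.63 in cytosolic vehicle and 9.06, 9.38, 9.01 and 9.61 in cytosolic PP242. All 4 PP242 arrays were above all vehicle arrays, with replicates 2 and 4 the highest. The rise was 0.58 ± 0.13, or 1.49-fold (limma adjusted p = 0.00352). Polysome values were 8.73, 8.46, 8.50 and 8.52 in vehicle and 8.99, 8.81, 9.04 and 8.96 with PP242, again without overlap, a rise of 0.40 ± 0.13 (adjusted p = 0.0434). The TFE3 calls are not secure. The cytosolic one was lost without replicate number 4 (adjusted p = 0.0653) and without cytosolic PP242 replicates 2 and 4 (difference 0.35, adjusted p = 0.0511), and the polysome one was lost when any 1 number was left out (adjusted p = 0.0966 to 0.177). With the mean of its 4 probe sets TFE3 did not pass in either pool (adjusted p = 0.0727 and 0.374). A second TFE3 probe set was called higher on polysomes, at 0.47 ± 0.13 (adjusted p = 0.021 over all probe sets). In the cytosol that probe set was not called (adjusted p = 0.104), and the remaining, dimmer ones were called in neither pool.

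MITF, the member known for its part in the pigment cell lineage, had a low signal. It read 5.46, 5.26, 5.18 and 5.43 in cytosolic vehicle, 5.65, 5.26, 5.23 and 4.97 in cytosolic PP242, 5.38, 5.37, 5.35 and 5.47 in polysome vehicle and 5.49, 5.42, 5.32 and 5.35 in polysome PP242. The groups overlap in both pools, and the differences were -0.06 ± 0.12 and 0.00 ± 0.12 (limma adjusted p = 0.804 and 0.995). Its signal, like that of CTSF, CTSO, CTSS and ARSB, was under the median of all genes in every group.

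**Figure D2:**
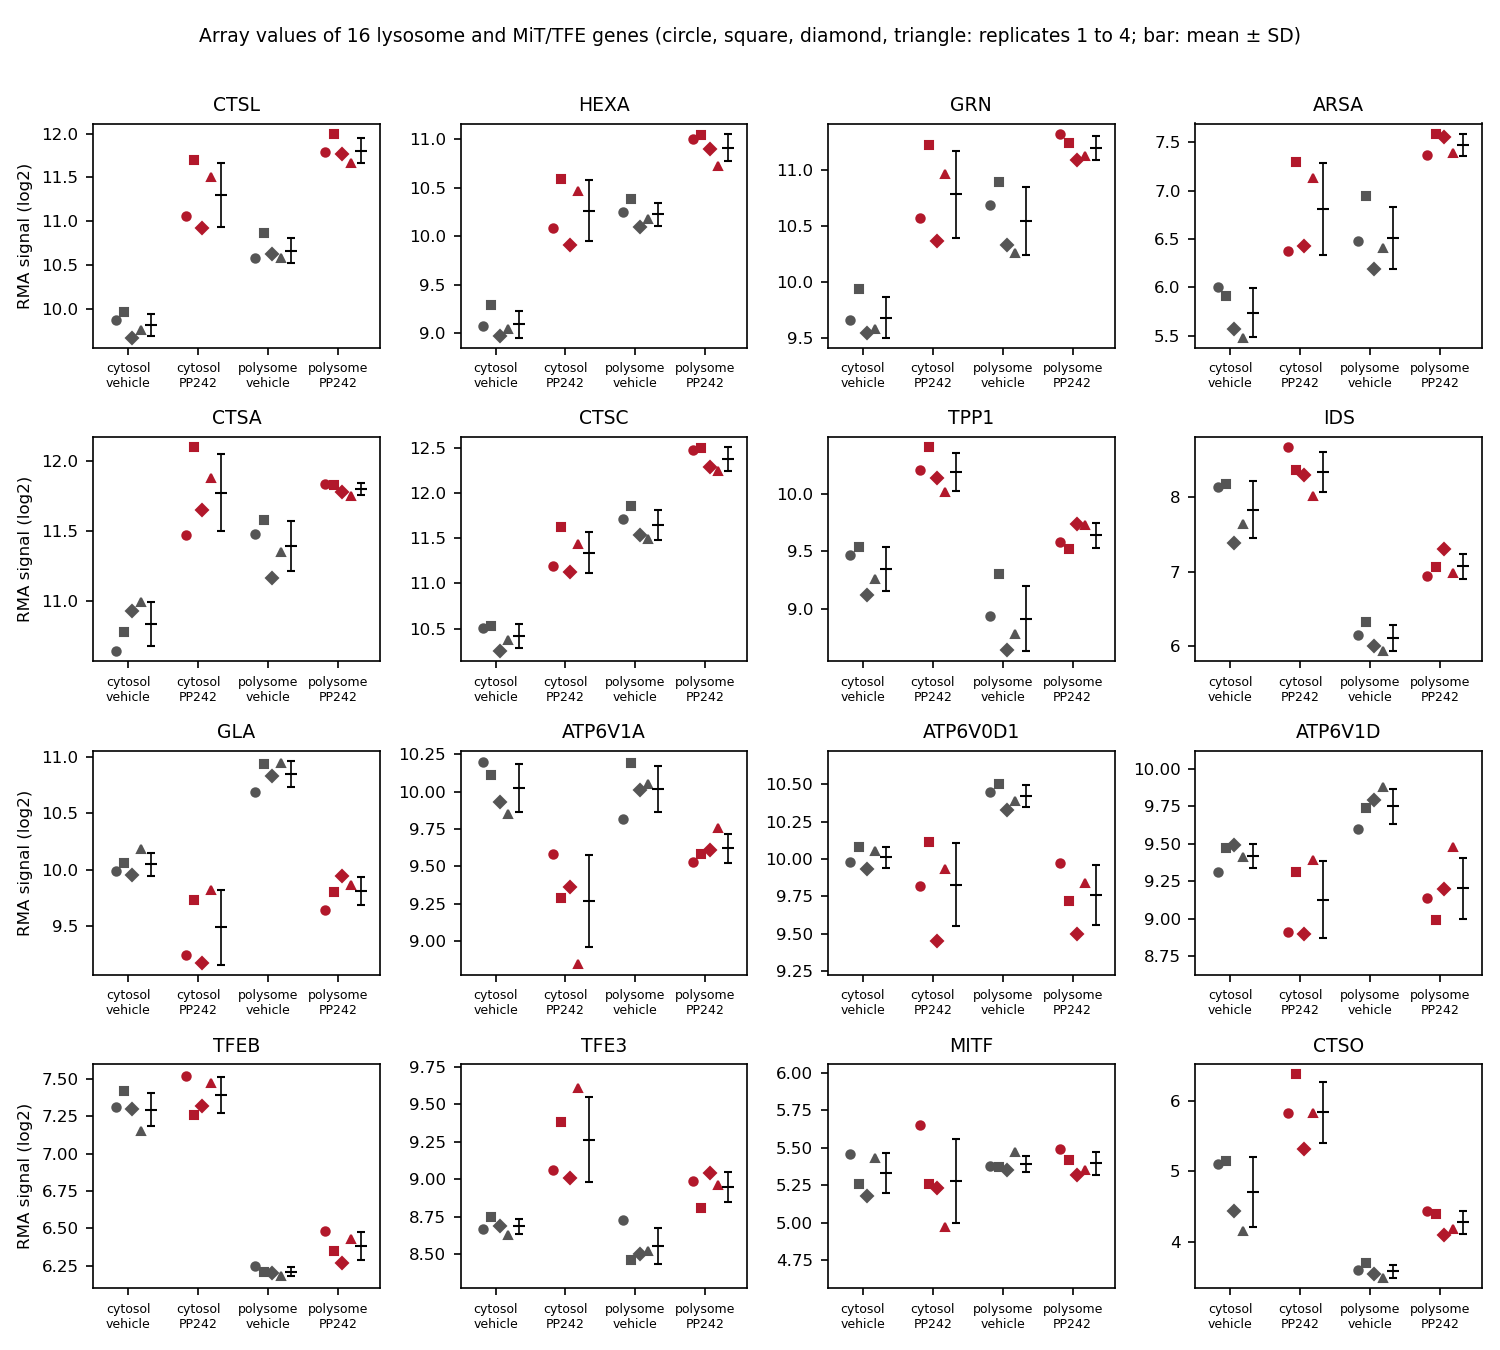
Values of 16 of the genes in every array, as RMA signal on the log2 scale with an axis of its own for each gene. Grey symbols are vehicle and red symbols PP242, the 4 shapes are replicates 1 to 4, and bars are the mean ± SD of the group. In CTSL, HEXA, GRN and ARSA the cytosolic PP242 replicates 2 and 4 lie above 1 and 3, whereas on polysomes the PP242 arrays lie close together.

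Among 12 proteases, 7 were higher and none lower in cytosolic RNA, with a median of 0.56, and on polysomes 5 were higher and 1 lower, with a median of 0.37. For this and the following classes, the shares over all genes were 8.54% higher and 7.91% lower in the cytosol. On polysomes they were 6.82% and 6.55%. CTSL, a cysteine endopeptidase, had the largest rise of all members in both pools. It read 9.87, 9.96, 9.67 and 9.76 in cytosolic vehicle and 11.06, 11.70, 10.92 and 11.50 in cytosolic PP242. In polysome RNA the arrays read 10.58, 10.87, 10.63 and 10.58 in vehicle and 11.79, 12.00, 11.77 and 11.66 with PP242. The lowest PP242 array was well above the highest vehicle array in both pools. The rise was 1.48 ± 0.15 in the cytosol, or 2.79-fold (limma adjusted p = 1.28e-06), and 1.14 ± 0.15 on polysomes, or 2.20-fold (adjusted p = 2.46e-05).

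CTSA, a serine carboxypeptidase that also protects beta-galactosidase and neuraminidase in a complex, read 10.64, 10.78, 10.93 and 10.99 in cytosolic vehicle and 11.47, 12.10, 11.65 and 11.88 in cytosolic PP242. The polysome arrays gave 11.48, 11.58, 11.16 and 11.35 in vehicle and 11.84, 11.83, 11.78 and 11.75 with PP242. The groups did not overlap in either pool, and the PP242 arrays on polysomes lay closest together. The rise was 0.94 ± 0.13 in the cytosol (limma adjusted p = 4.99e-05) and 0.41 ± 0.13 on polysomes (adjusted p = 0.0430). The polysome call was lost when any 1 replicate number was left out (adjusted p = 0.0655 to 0.209).

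CTSC, the dipeptidyl peptidase that activates granule serine proteases in immune cells, read 10.51, 10.53, 10.25 and 10.37 in cytosolic vehicle and 11.19, 11.62, 11.12 and 11.43 in cytosolic PP242. Its polysome RNA read 11.71, 11.85, 11.53 and 11.49 in vehicle and 12.47, 12.50, 12.28 and 12.24 with PP242. Its groups stood apart in both pools, with rises of 0.93 ± 0.12 and 0.73 ± 0.12 that were called under every alternative run. The mean of its 4 probe sets gave smaller values, 0.35 and 0.42.

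TPP1, the tripeptidyl peptidase that is deficient in a childhood form of neuronal ceroid lipofuscinosis, read 9.47, 9.54, 9.12 and 9.26 in cytosolic vehicle and 10.21, 10.41, 10.14 and 10.02 in cytosolic PP242. On polysomes it read 8.94, 9.30, 8.64 and 8.78 in vehicle and 9.58, 9.52, 9.74 and 9.73 with PP242. Again no PP242 array reached down to a vehicle array. The rises were 0.85 ± 0.14 (limma adjusted p = 0.000331) and 0.73 ± 0.14 (adjusted p = 0.00137).

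CTSO, a little-studied cysteine cathepsin, read 5.11, 5.15, 4.43 and 4.15 in cytosolic vehicle and 5.83, 6.38, 5.31 and 5.83 in cytosolic PP242, and 3.6, 3.69, 3.54 and 3.48 in polysome vehicle and 4.43, 4.39, 4.09 and 4.18 in polysome PP242. Its rises of 1.13 ± 0.21 and 0.70 ± 0.21 (limma adjusted p = 0.000960 and 0.0330) were measured at a low signal, and the polysome call was lost when any 1 number was left out (adjusted p = 0.0516 to 0.149). CTSS, a cathepsin of antigen-presenting cells that also had a low signal, was the protease that fell on polysomes. It read 4.88, 4.58, 4.63 and 4.81 in vehicle and 4.54, 4.52, 4.28 and 4.36 with PP242 there, a difference of -0.30 ± 0.10 (adjusted p = 0.0475) that was also lost when any 1 number was left out (adjusted p = 0.0632 to 0.241). In the cytosol CTSS read 4.56, 4.42, 4.35 and 4.50 in vehicle and 4.44, 4.35, 4.35 and 4.40 with PP242, which overlap.

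The other proteases gave smaller or uneven differences. CTSD, the main aspartic protease of lysosomes, rose by 0.72 ± 0.13 in the cytosol (limma adjusted p = 0.000882). On polysomes its difference was 0.38 ± 0.13, with groups that do not overlap, and it was called with the replicate block (adjusted p = 0.0393) but not without it (adjusted p = 0.0673). CTSB, a broadly expressed cysteine protease, was called in the cytosol at 0.41 ± 0.13 (adjusted p = 0.0438), but not when any 1 number was left out (adjusted p = 0.0689 to 0.172). CTSH, an aminopeptidase, differed by 0.39 ± 0.15 (adjusted p = 0.0799, and 0.0253 with the block). CTSF, CTSK and CTSZ did not pass in either pool, with cytosolic differences of 0.20 ± 0.14, -0.16 ± 0.23 and -0.13 ± 0.26.

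Of the 14 glycosidases and sulfatases measured, 7 were higher and 1 lower in cytosolic RNA (median 0.51), and 5 were higher and 1 lower on polysomes (median 0.23). HEXA, the alpha subunit of beta-hexosaminidase, which is deficient in Tay-Sachs disease, read 9.07, 9.29, 8.97 and 9.04 in cytosolic vehicle and 10.09, 10.59, 9.91 and 10.47 in cytosolic PP242. Polysome values were 10.25, 10.38, 10.10 and 10.18 in vehicle and 11, 11.04, 10.90 and 10.72 with PP242. The groups were far apart in both pools. The rise was 1.17 ± 0.14 in the cytosol, or 2.25-fold (limma adjusted p = 9.63e-06), and 0.69 ± 0.14 on polysomes (adjusted p = 0.00199). The other 3 probe sets of HEXA showed no call in either pool, and the mean over its probe sets was 0.40 in the cytosol (adjusted p = 0.000595) and 0.21 on polysomes (adjusted p = 0.0505).

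ARSA, the arylsulfatase that degrades sulfatide in myelin, read 6.00, 5.91, 5.57 and 5.48 in cytosolic vehicle and 6.38, 7.30, 6.43 and 7.13 in cytosolic PP242. Replicates 2 and 4 lay higher than 1 and 3 with PP242 in the cytosol. In polysome RNA the arrays read 6.48, 6.95, 6.19 and 6.41 in vehicle and 7.37, 7.59, 7.56 and 7.39 with PP242, without overlap. The rises were 1.07 ± 0.20 (limma adjusted p = 0.000968) and 0.97 ± 0.20 (adjusted p = 0.00230). Without cytosolic PP242 replicates 2 and 4 the cytosolic difference was 0.67 (adjusted p = 0.0293).

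GLA, the alpha-galactosidase deficient in Fabry disease, moved the other way and had the largest fall among members on polysomes. It read 9.99, 10.06, 9.95 and 10.18 in cytosolic vehicle and 9.24, 9.73, 9.17 and 9.82 in cytosolic PP242. The polysome arrays gave 10.69, 10.93, 10.83 and 10.94 in vehicle and 9.64, 9.80, 9.94 and 9.86 with PP242. Every PP242 array was below every vehicle array in both pools. It fell by 0.56 ± 0.14 in the cytosol (limma adjusted p = 0.00898) and by 1.04 ± 0.14 on polysomes (adjusted p = 3.45e-05), where its level was 0.487 of that in vehicle. The cytosolic call was lost without replicate number 1 (adjusted p = 0.0624), and without cytosolic PP242 replicates 2 and 4 the cytosolic difference was -0.84.

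IDS, the iduronate sulfatase of glycosaminoglycan breakdown, was the member called higher on polysomes and not in the cytosol, by the probe set used. It read 8.13, 8.17, 7.39 and 7.64 in cytosolic vehicle and 8.67, 8.36, 8.30 and 8.02 in cytosolic PP242, which overlap. Its polysome RNA read 6.15, 6.33, 6.01 and 5.94 in vehicle and 6.94, 7.07, 7.31 and 6.98 with PP242, which are well apart. The difference was 0.51 ± 0.17 in the cytosol (limma adjusted p = 0.0514, and 0.0157 with the replicate block) and 0.97 ± 0.17 on polysomes (adjusted p = 0.000648). The test of the difference between the pools gave 0.46 ± 0.24 and did not pass (adjusted p = 0.571). IDS has 10 probe sets, all with a polysome difference above 0, and their mean was 0.54 (adjusted p = 0.000691). In the cytosol 2 of the 10 were called higher, at 0.64 and 0.79 (limma adjusted p = 0.0424 and 0.00333 over all probe sets). The call on polysomes alone therefore depends on the probe set.

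GAA, the acid alpha-glucosidase that degrades glycogen and is deficient in Pompe disease, rose by 0.73 ± 0.17 in the cytosol and by 0.54 ± 0.17 on polysomes (limma adjusted p = 0.00571 and 0.0420). Both calls depend on single replicate numbers: without number 2 the adjusted p was 0.0836 in the cytosol and 0.124 on polysomes, and on polysomes it was 0.211 without number 3 and 0.0819 without number 4. MANBA, the beta-mannosidase, rose by 0.59 ± 0.14 and 0.49 ± 0.14 (adjusted p = 0.00494 and 0.0194), and its polysome call was lost without number 1, 3 or 4 (adjusted p = 0.134, 0.0687 and 0.0790). GUSB, the beta-glucuronidase, rose by 0.52 ± 0.13 in the cytosol (adjusted p = 0.00720) and was not called on polysomes. Without cytosolic PP242 replicates 2 and 4 the cytosolic calls of GAA, MANBA and GUSB were lost (adjusted p = 0.106, 0.0699 and 0.110).

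NAGLU and SGSH, both enzymes of heparan sulfate breakdown, were called in the cytosol at 0.48 ± 0.16 and 0.44 ± 0.13 (limma adjusted p = 0.0448 and 0.0210). NAGLU was not called when any 1 replicate number was left out (adjusted p = 0.0609 to 0.161), and SGSH not without number 2 or 4 (adjusted p = 0.183 and 0.114). NEU1, the lysosomal neuraminidase, and FUCA1, the fucosidase, had cytosolic differences of 0.81 ± 0.28 and 0.64 ± 0.22 that missed the threshold (adjusted p = 0.0582 and 0.0513) and passed with the block (2.94e-05 and 0.000562). Replicate numbers 1 and 2 of NEU1 read higher than 3 and 4 in both cytosolic groups. IDUA, ARSB and MAN2B1 did not pass in either pool, at 0.18 ± 0.15, -0.12 ± 0.19 and 0.34 ± 0.18 in the cytosol. A dimmer ARSB probe set was called lower in the cytosol, at -0.58 ± 0.13 (adjusted p = 0.00605 over all probe sets).

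All 4 calls among the 6 lipid-degrading enzymes and activators were higher in the cytosol (median 0.52), and PSAP was the 1 called on polysomes (median of the class 0.36). PSAP, whose product is cut into the saposins that help enzymes reach sphingolipids, rose by 0.89 ± 0.11 in the cytosol, from a mean of 11.32 (SD 0.15, n = 4) to 12.21 (SD 0.20), and by 0.60 ± 0.11 on polysomes, from 11.80 (SD 0.13) to 12.40 (SD 0.08). Both calls held under every alternative run (limma adjusted p = 1.80e-05 and 0.00105). GM2A, the activator that presents GM2 ganglioside to hexosaminidase, rose by 0.78 ± 0.16 in the cytosol (adjusted p = 0.00209). A second GM2A probe set was also called higher there, at 0.85 ± 0.17 (adjusted p = 0.00272 over all probe sets), and the remaining ones were not called. With the mean of the 7 GM2A probe sets the difference was 0.25 (adjusted p = 0.234).

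SMPD1, the acid sphingomyelinase, rose by 0.61 ± 0.15 in the cytosol (limma adjusted p = 0.00930), and ASAH1, the acid ceramidase, by 0.44 ± 0.14 (adjusted p = 0.0320). SMPD1 was not called without replicate number 2 or 4 (adjusted p = 0.0724 and 0.0980), and ASAH1 not without 2, 3 or 4 (adjusted p = 0.134, 0.171 and 0.0743). Neither passed on polysomes, where they differed by 0.38 ± 0.15 and 0.40 ± 0.14, except with the block (adjusted p = 0.0490 and 0.0186). LIPA, the acid lipase of cholesteryl esters, differed by 0.35 ± 0.21 and 0.29 ± 0.21 and was called with the block alone (adjusted p = 0.0106 and 0.0342). PPT1, a thioesterase that removes palmitate from proteins, had differences of -0.23 ± 0.14 and -0.13 ± 0.14 that did not pass.

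Of the 9 other membrane and lumenal proteins, 5 were higher in the cytosol (median 0.44) and 2 on polysomes (median 0.27), and none was lower. GRN, the progranulin precursor that is delivered to lysosomes and cut there, read 9.66, 9.94, 9.54 and 9.58 in cytosolic vehicle and 10.57, 11.23, 10.37 and 10.97 in cytosolic PP242. On polysomes it read 10.69, 10.90, 10.33 and 10.26 in vehicle and 11.33, 11.25, 11.09 and 11.13 with PP242. The groups were apart in both pools, and all 3 of its probe sets were called higher in each. The rise was 1.11 ± 0.17 in the cytosol, or 2.15-fold (limma adjusted p = 0.000180), and 0.66 ± 0.17 on polysomes (adjusted p = 0.0143). The polysome call was lost without replicate number 1 or 4 (adjusted p = 0.0778 and 0.101).

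CD63, a tetraspanin of late endosomes, lysosomes and exosomes, rose from a mean of 11.54 (SD 0.17, n = 4) to 12.27 (SD 0.21) in the cytosol and from 12.33 (SD 0.17) to 12.96 (SD 0.11) on polysomes. Its rises of 0.73 ± 0.12 and 0.63 ± 0.12 were called under every alternative run (limma adjusted p = 0.000305 and 0.00127). NPC1, which exports cholesterol from the lysosome, rose by 0.69 ± 0.12 in the cytosol (adjusted p = 0.000356). On polysomes its difference was 0.32 ± 0.12, called with the block (adjusted p = 0.0255) and not without it (adjusted p = 0.0831). Its partner NPC2 differed by 0.44 ± 0.19 in the cytosol, called with the block alone (adjusted p = 0.000266).

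LAMP1 and LAMP2 are among the most abundant proteins of the lysosomal membrane. LAMP1, whose promoter stretch above has the most E-boxes, rose by 0.41 ± 0.12 in the cytosol (limma adjusted p = 0.0240), but not without replicate number 2, 3 or 4 (adjusted p = 0.144, 0.0545 and 0.103). On polysomes LAMP1 differed by 0.27 ± 0.12, called with the block alone (adjusted p = 0.0105). LAMP2 gave 0.70 ± 0.20 (adjusted p = 0.0227) with the probe set of the highest mean, and was not called without number 1, 2 or 4 (adjusted p = 0.0800, 0.0699 and 0.129). Another LAMP2 probe set showed a call in the opposite direction, -0.51 ± 0.16 (adjusted p = 0.0361 over all probe sets), and the mean of its 4 probe sets was 0.07. LAMP2 is the 1 member with called probe sets of both signs, and it is counted among the genes higher in the cytosol by the probe set used.

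MCOLN1, the calcium channel of the lysosomal membrane, was not called: the difference was -0.02 ± 0.12 in the cytosol, with an interval of -0.27 to 0.24, and -0.26 ± 0.12 on polysomes (limma adjusted p = 0.940 and 0.199). CLN3 and SCARB2, a receptor for glucocerebrosidase, had cytosolic differences of 0.32 ± 0.15 and 0.33 ± 0.14 that did not pass (adjusted p = 0.158 and 0.115). SCARB2 was called with the block (adjusted p = 0.0315).

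The V-ATPase is the proton pump of the lysosome and of other acidic compartments. Of its 8 subunits, 1 was higher and 1 lower in the cytosol (median -0.06), and on polysomes 2 were lower and none higher (median -0.32). That is 25% called in each pool, beside 16.4% and 13.4% of all genes. ATP6V1A, the catalytic subunit of the cytoplasmic V1 sector, read 10.20, 10.11, 9.93 and 9.85 in cytosolic vehicle and 9.58, 9.29, 9.36 and 8.85 in cytosolic PP242. Polysome values were 9.82, 10.19, 10.01 and 10.05 in vehicle and 9.53, 9.58, 9.61 and 9.76 with PP242. PP242 arrays were lower in both pools, without overlap. It fell by 0.75 ± 0.14 in the cytosol (limma adjusted p = 0.000907), and its polysome difference of -0.40 ± 0.14 was called with the block (adjusted p = 0.0384) and not without it (adjusted p = 0.0679). Its second probe set was called lower on polysomes without the block, at -1.06 ± 0.25 (adjusted p = 0.00972 over all probe sets), and was not called in the cytosol (adjusted p = 0.117).

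ATP6V0D1, a subunit of the membrane V0 sector, read 9.98, 10.08, 9.93 and 10.05 in cytosolic vehicle and 9.82, 10.11, 9.45 and 9.93 in cytosolic PP242, which overlap. In polysome RNA the arrays read 10.45, 10.50, 10.33 and 10.39 in vehicle and 9.97, 9.72, 9.50 and 9.84 with PP242, which do not. It fell by 0.66 ± 0.13 on polysomes (limma adjusted p = 0.00170), with a cytosolic difference of -0.18 ± 0.13 (adjusted p = 0.377). ATP6V1D, of the central rotor, read 9.31, 9.47, 9.49 and 9.41 in cytosolic vehicle and 8.91, 9.31, 8.90 and 9.39 in cytosolic PP242. The polysome arrays gave 9.60, 9.74, 9.79 and 9.88 in vehicle and 9.14, 8.99, 9.20 and 9.48 with PP242. It fell by 0.55 ± 0.13 on polysomes (adjusted p = 0.00803), a call lost without replicate number 2 (adjusted p = 0.0864), and the cytosolic difference was -0.29 ± 0.13 (adjusted p = 0.146). Another ATP6V1D probe set was called lower in both pools, at -0.60 in the cytosol and -0.78 on polysomes (adjusted p = 0.0214 and 0.00393 over all probe sets). Its remaining probe sets were not called.

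ATP6AP1, an accessory protein needed for assembly of the pump, was the subunit that rose in the cytosol, by 0.36 ± 0.10 (limma adjusted p = 0.0194), and was not called without replicate number 1, 2 or 4 (adjusted p = 0.0847, 0.187 and 0.0831). Its polysome difference was 0.01 ± 0.10. ATP6V1H and ATP6V1B2 differed by -0.34 ± 0.13 and -0.29 ± 0.15 on polysomes without passing (adjusted p = 0.0976 and 0.249), and ATP6V1H was called lower with the block (adjusted p = 0.0294). ATP6V0E1 and ATP6V1C1 did not pass in either pool. For ATP6V1C1 a second probe set was called lower in the cytosol, at -0.62 ± 0.13 (adjusted p = 0.00274 over all probe sets), against 0.08 for the probe set used.

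Across the RNA pools, 13 genes were called higher in both (ARSA, CD63, CTSA, CTSC, CTSL, CTSO, GAA, GRN, HEXA, MANBA, PSAP, TFE3 and TPP1), where 4.41% of all genes were. GLA alone was called lower in both, where 4.28% of all genes were. Another 12 were called higher in the cytosol alone, among them CTSD, GUSB, NPC1 and GM2A, and 21 were called in neither pool. The share of cytosolic risers that were also called higher on polysomes was 13 of 25 (52%), close to the 51.7% of all genes that rose in the cytosol. Their median was 0.72 in the cytosol and 0.40 on polysomes, against 0.57 and 0.45 for all cytosolic risers.

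**Figure D3:**
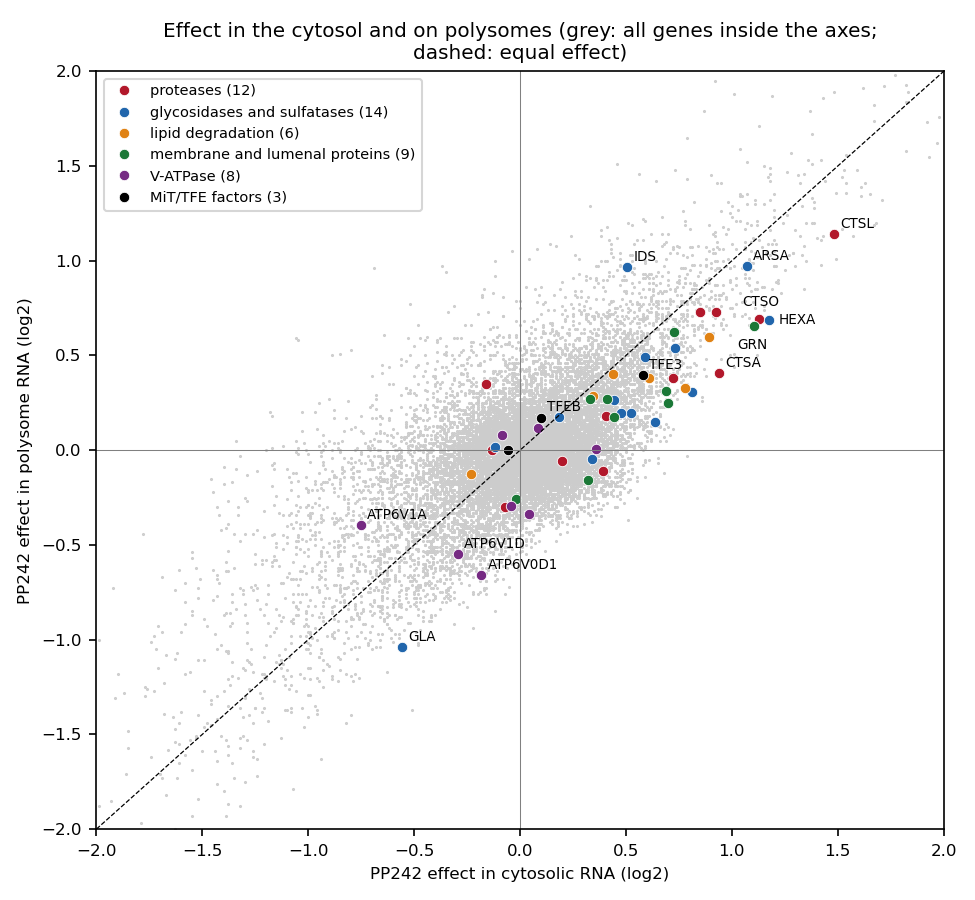
Effect of PP242 in cytosolic RNA (horizontal, log2) against its effect in polysome RNA (vertical, log2). Coloured points are the 52 genes by class, grey points all genes inside the axes, and the dashed line marks equal effects. Most of the 52 lie to the right of 0 and below the dashed line, CTSL lies farthest to the upper right, IDS above the line, and GLA at the lower left.

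Whether PP242 changed polysome association was asked as the polysome effect minus the cytosolic effect. No member was called, and 0% of all genes were called either (limma, Benjamini-Hochberg; the lowest adjusted p among members was 0.558). At an unadjusted p under 0.05, 8 members were lower and none higher, against 948 genes lower (4.79%) and 1750 in either direction (8.85%) over all genes. The polysome effect was below the cytosolic effect for 42 of the 52 genes (80.8%), and for 56.3% of all genes, with a median of -0.23 against -0.04. With the replicate block 20 of the 52 members and 2942 of the 19777 genes had an unadjusted p under 0.05. Of these members CTSK and IDS were higher and the others lower. Again none was called (lowest adjusted p of 0.258 among members).

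The lowest value was that of CTSA, at -0.53 ± 0.18 (interval -0.92 to -0.15), followed by NEU1 at -0.51 ± 0.40 and CTSH at -0.50 ± 0.21. With the replicate block their standard errors were 0.162, 0.155 and 0.172, in that order, and none was called (limma adjusted p = 0.26, 0.26 and 0.27). The highest were CTSK at 0.51 ± 0.33, IDS at 0.46 ± 0.24 and ATP6V1A at 0.36 ± 0.20. For TFEB the value was 0.08 ± 0.14 and for TFE3 -0.18 ± 0.18. The difference uses the cytosolic PP242 arrays, the least precise group. Without their replicates 2 and 4 the median of the members was -0.11, and 71.2% of them, against 48.8% of all genes, lay below 0. All 25 genes called higher in the cytosol had a value below 0, where 72.9% of all cytosolic risers did, but these genes were picked on the same cytosolic arrays that enter the difference.

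**Figure D4:**
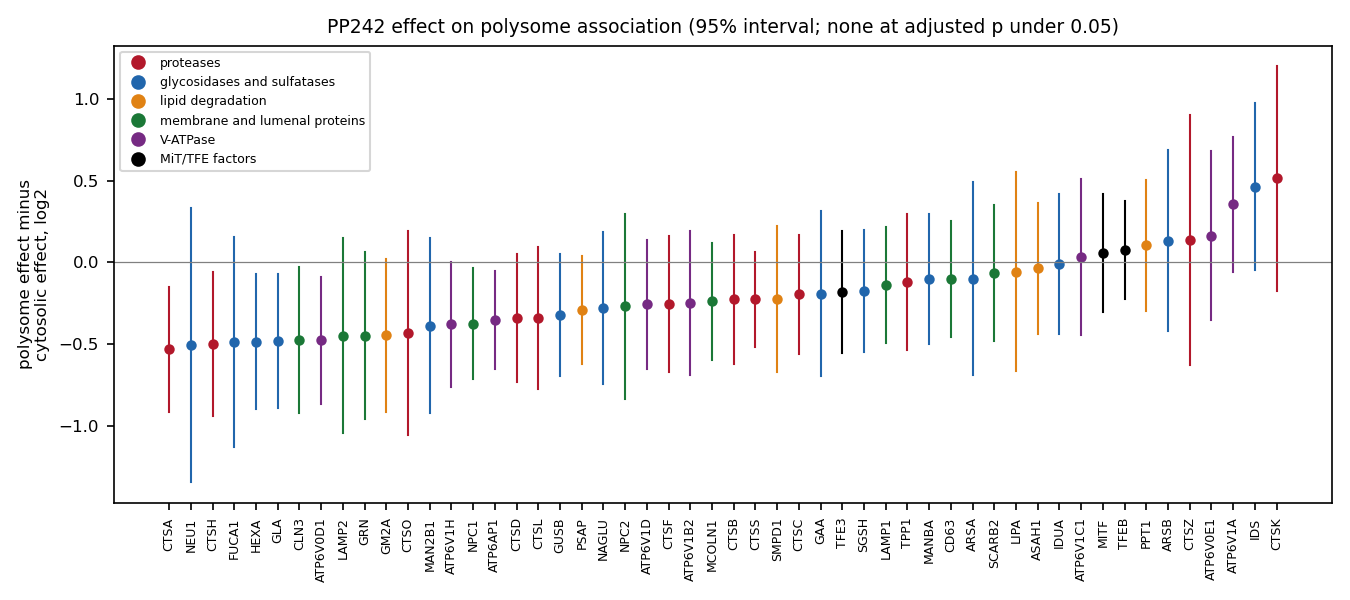
Polysome effect minus cytosolic effect of PP242 for each of the 52 genes (log2, 95% interval), ordered from lowest to highest and coloured by class. Of the 52 points, 42 lie below 0. CTSA is lowest at -0.53 and CTSK highest at 0.51, and no gene has an adjusted p under 0.05.

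How strongly these mRNAs were represented on polysomes was asked by setting polysome against cytosolic RNA within a treatment. With each array centred on its median, 35 of the 52 genes were higher and 4 lower in vehicle (52.3% of all genes called, 36.9% higher and 15.4% lower), with a median of 0.69 against 0.17 for all genes. After PP242, 28 were higher and 5 lower (52.2% of all genes called, 34.7% higher and 17.5% lower), with a median of 0.39 against 0.14. These splits depend on how the pools are brought to 1 scale. On the deposited scale, which moves the median of all genes to -0.16 in vehicle and -0.18 with PP242, 26 members were higher and 9 lower in vehicle, and 17 and 11 after PP242. With quantile normalization over all arrays the split was 22 and 9 in vehicle and 15 and 15 after PP242, and with cyclic loess 21 and 11, and 13 and 16.

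The members with the highest polysome over cytosolic values in vehicle were CTSD (1.70 ± 0.13), CTSC (1.56 ± 0.11), HEXA (1.47 ± 0.13), GUSB (1.41 ± 0.12) and GAA (1.39 ± 0.18). The lowest were CTSK (-1.57 ± 0.24), IDS (-1.40 ± 0.16), CTSO (-0.80 ± 0.20) and TFEB (-0.76 ± 0.10). After PP242 the same 9 read 1.35, 1.35, 0.97, 1.07, 1.19, -1.06, -0.94, -1.25 and -0.69, in that order. All 9 kept their sign under the 3 other scalings. The mean of the 2 TFEB probe sets after PP242 was 0.18, of the opposite sign.

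Lysosomal genes outside the list were taken from a second list of 93, of which 79 could be measured. Like the members, they were chosen with earlier results of these data known. In cytosolic RNA 22 were higher and 2 lower, 30.4% called against 16.4% of all genes. On polysomes 12 were higher and 1 lower, 16.5% called against 13.4%. The cytosolic shares of the remaining V-ATPase subunits (8.33%) and of the genes that control TFEB-type factors (15.4%) were not above that of all genes. Among 21 other hydrolases and activators 8 were higher and 1 lower in the cytosol. DPP7, a dipeptidyl peptidase, rose by 0.84 ± 0.15 (limma adjusted p = 0.000492), and GGH, which trims glutamates from folates, fell by 1.48 ± 0.24 (adjusted p = 0.000243). Among 24 other membrane proteins and transporters 9 were higher and none lower, including SLC29A3, a nucleoside transporter (0.70 ± 0.12), and CLCN7, the chloride-proton exchanger of lysosomes (0.68 ± 0.12).

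Among the 12 remaining V-ATPase subunits 1 was higher, ATP6V0A1 at 0.56 ± 0.14 (limma adjusted p = 0.0121), and none was lower, and none was called on polysomes. Among 9 enzyme-sorting genes 3 were higher. IGF2R, the mannose 6-phosphate receptor that also binds IGF2, read 9.38, 9.37, 9.46 and 9.63 in cytosolic vehicle and 10.24, 10.68, 10.42 and 10.74 in cytosolic PP242, without overlap. It rose by 1.06 ± 0.12 in the cytosol and by 0.91 ± 0.12 on polysomes (adjusted p = 4.83e-06 and 2.71e-05). GNPTG, a subunit of the enzyme that builds the mannose 6-phosphate tag, rose by 0.76 ± 0.17 in the cytosol (adjusted p = 0.00469). Of 13 genes that control TFEB-type factors, RRAGC, a Rag GTPase, was higher (0.69 ± 0.17, adjusted p = 0.00781) and FNIP2, a folliculin partner, lower (-0.39 ± 0.13, adjusted p = 0.0448) in the cytosol, and none was called on polysomes.

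A promoter window of 300 bases, from 250 before to 50 after an annotated start site, was given by RefSeq for 36 of the 53 genes. The E-box core CACGTG, which reads the same on both strands, occurred in the windows of 11 of them (30.6%), against 8.77% of 27305 genes (7.26% of 35116 windows). The longer TCACGTG, searched on both strands, occurred in 10 (27.8%), against 4.49% of genes, the palindrome TCACGTGA in 6 (16.7%), against 1.18%, and the complete 10-letter element in 2 (5.56%), against 0.421%. Each longer form contains the shorter ones. The 6 genes with TCACGTGA were ATP6V0D1, CLN3, CTSA, GAA, LAMP1 and MCOLN1.

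Members with and without an E-box are set side by side here, with no test. Of the 11 with one, 5 were called higher and none lower in the cytosol, with a median of 0.41, and of 24 measured members whose windows held none, 10 were higher and 1 lower, with a median of 0.42. Over all genes 8.54% were higher and 7.91% lower there. CTSA and GAA rose in both pools, as given above. MCOLN1, which has the complete element and a second E-box, differed by -0.02 in the cytosol, and ATP6V0D1 fell on polysomes. A match describes letters in a window and not binding, which was not measured here.

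**Figure D5:**
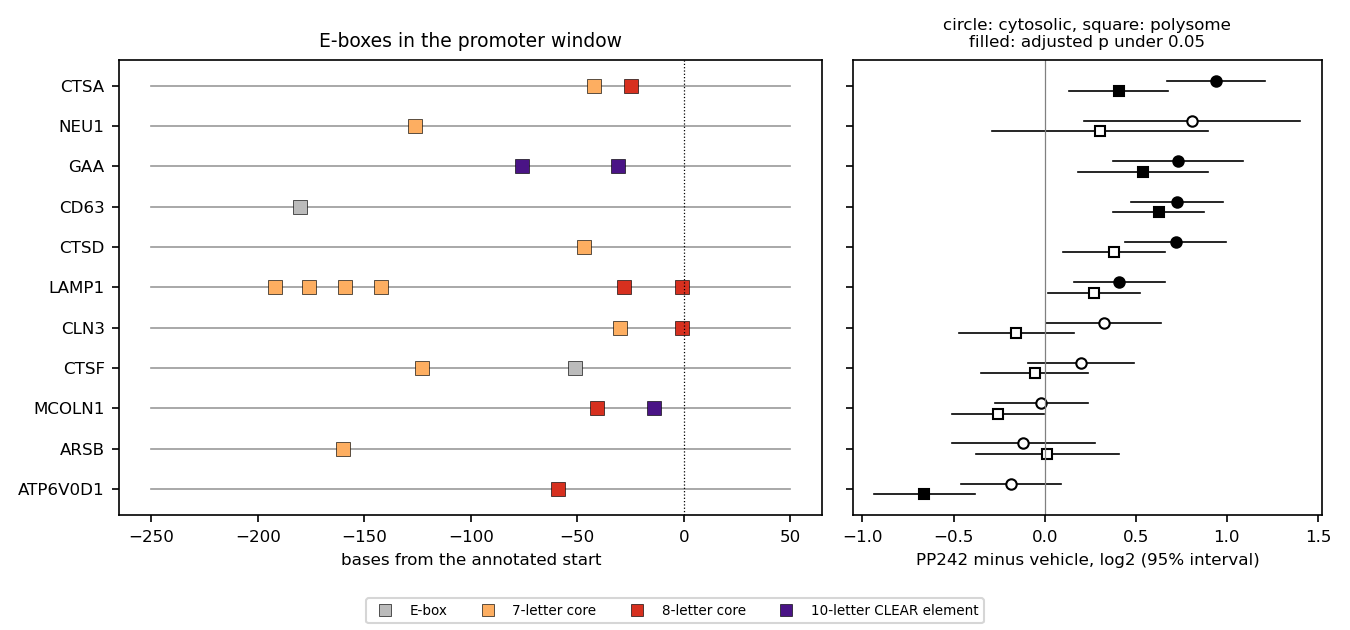
Left: position of each E-box in the promoter window of the 11 genes that have one, in bases from the annotated start site (first window of each gene), coloured by the longest form of the motif that matched. Right: PP242 minus vehicle on the log2 scale with its 95% interval, circles for cytosolic and squares for polysome RNA, filled at an adjusted p under 0.05. Genes with similar E-boxes, such as GAA and MCOLN1, have cytosolic values as different as 0.73 and -0.02.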

How the data were processed

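The table deposited by the authors holds 54613 probe sets on 16 arrays, 4 in each of 4 groups, as log2 values from 1.65 to 14.61, rounded to 2 decimals, with 0 missing. RMA was used, per the submitters' processing notes, with no version stated, and the sources used here do not say whether all arrays were normalized together. A gene table, credited to GEO's platform annotation, gave 1 gene for 41091 probe sets, several for 1801 and none for 11721. Several probe sets named 10523 of the 19777 genes, and the one of highest mean over all arrays was then used.

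limma 3.58.1 in R 4.3.3 fitted 1 mean per group over all 16 arrays (lmFit, then eBayes with an intensity trend, 12 residual degrees of freedom). P-values are two-sided and adjusted by Benjamini-Hochberg over the 19777 genes, with calls made below 0.05. Values after ± are standard errors of the contrast unless SD is named. Polysome over cytosolic contrasts used array values minus the array median. Signals are relative to the other mRNAs on an array, so a loss shared by all mRNAs of a pool is not visible. The number of arrays limits the precision.

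Same-numbered arrays of the compared groups deviated together from their group means in 16 of 16 pairs (correlations of 0.164 to 0.510). Replicate numbers were therefore taken to pair the samples, by the criterion that every such pair exceeds 0.1. Of all 24 same-numbered pairs, 23 exceeded 0.1. The lowest, polysome vehicle 4 with cytosolic PP242 4, was 0.026. Those groups were not compared directly, but both enter the test of polysome association and the block fit. The fit with the number as a block is given where it changes a call. Of the 16 arrays, 11 correlated best with their own number. Numbers 1 and 2, and numbers 3 and 4, also deviated together (0.447 for polysome vehicle 1 with cytosolic vehicle 2, and 0.406 for polysome vehicle 3 with cytosolic vehicle 4), so the numbers also form 2 sets. The steps were tested on simulated data. The members and lists were chosen with earlier results of these data known. Array values are given for TFEB, TFE3 and MITF and for the 6 largest rises and falls among called members of each RNA pool, and for lists outside the members up to 2 called genes with the smallest p per class are named, with the polysome over cytosolic values of 9 members.

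Promoter windows were matched by gene symbol to a RefSeq table (GRCh38.p14). Figures were drawn with matplotlib 3.10.9. Alternatives were the 8 compared arrays alone, the block, array weights, arrays or numbers left out, numbers 1 and 2 or 3 and 4 alone, 3 scalings, no intensity trend, removal of dim genes, and the mean of a gene's probe sets.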

Additional observations from a re-analysis of the deposited data

Results flagged for a closer look

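Of 208 sets of 4 array values, 1 per gene and group, 3 (1.44%) held an array whose gap to the nearest other was large for the range of its group by Dixon's 95% criterion. Chance gives about 1 in 20. GAA in polysome PP242 had replicate 3 at 10.64, where the other 3 read 10.29 to 10.32. SMPD1 in polysome PP242 had replicate 2 at 7.95, where the other 3 read 8.11 to 8.12. ATP6V1C1 in cytosolic vehicle had replicate 4 at 7.54, where the other 3 read 7.41 to 7.42.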

How the results depend on the processing

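With 27 members called in cytosolic RNA, the count was 16 without cytosolic PP242 replicates 2 and 4, 13 with numbers 3 and 4 alone, 22 with numbers 1 and 2 alone, 19 with the 8 cytosolic arrays alone, 34 with the replicate block, and 18 to 25 without 1 number in turn. With 18 called in polysome RNA, it was 10 with numbers 1 and 2 alone, 9 with 3 and 4 alone, 26 with the block, and 11 to 12 without 1 number in turn. For polysome association it was 0 in every setting. The block changed no calls other than those named with it in the report. Over all genes, calls went from 3253 in cytosolic RNA to 1976 without PP242 replicates 2 and 4, 1543 without number 2, 1604 without number 4, 1058 with 3 and 4 alone, 2069 with 8 arrays and 4929 with the block. In polysome RNA they went from 2644 to 1689 without number 1, 1627 without number 2, 1089 with 3 and 4 alone and 4020 with the block. With fewer arrays the fit has fewer degrees of freedom, and other causes were not tested.

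In every setting that gave a value, 11 members kept their cytosolic call (CTSA, CTSC, CTSL, CTSO, TPP1, HEXA, ARSA, PSAP, CD63, GRN and ATP6V1A) and 6 their polysome call (CTSC, CTSL, GLA, IDS, PSAP and CD63); removal of dim genes took out CTSO. With the mean of a gene's probe sets the members' median was 0.29 in cytosolic and 0.11 in polysome RNA, and TFEB's polysome over cytosolic value after PP242 changed sign, to 0.18.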
